A study of Mus musculus with 5 samples.

Results

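Regions bound by the transcription factors Tbx3, Nkx2-5 and Gata4 in adult mouse heart were examined at 3 potassium channel genes, Kcnh2, Kcnq1 and Kcnj2. The members were selected by position: every region of the 3 factors' lists that overlaps an mm9 window holding the gene and about 100 kb on each side was taken. The bounds of the genes in mm9 were not checked against an annotation, so the middle of a window marks the gene only as far as the rule places it there. The windows were 23.72 to 23.96 Mb of chromosome 5 for Kcnh2 (240 kb), 150.19 to 150.72 Mb of chromosome 7 for Kcnq1 (530 kb) and 110.82 to 111.04 Mb of chromosome 11 for Kcnj2 (220 kb). They held 44 of the 21703 regions in the lists, 21 of Tbx3, 22 of Nkx2-5 and 1 of Gata4. The loci were chosen with their regions known, so the numbers below are descriptions and carry no test.

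The regions come from chromatin immunoprecipitation followed by sequencing (ChIP-seq) of heart tissue from adult FVB/N mice, with 1 library per factor and so no replicate check. Nkx2-5 and Gata4 were profiled in wild-type hearts. Tbx3 was profiled in hearts of the genotype Myh6-MCM;CAG-CAT-TBX3, which carry a TBX3 transgene together with a Cre driven by the cardiomyocyte promoter of Myh6. A difference between the Tbx3 list and the other 2 lists therefore cannot be told apart from genotype, antibody or depth. The control library, with the Tbx3 antibody in Myh6-MCM hearts, and a p300 library of wild-type hearts were not analysed here. The 3 lists hold 13242, 6705 and 1756 regions for Tbx3, Nkx2-5 and Gata4, with positions only, so depth and enrichment of a region are unknown. A locus without a region in a list is one where none was listed, at an unknown depth.

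Potassium channels carry the outward currents that end the cardiac action potential. Kcnh2 encodes the ERG channel of the rapid delayed rectifier current, Kcnq1 encodes the pore subunit of the slow delayed rectifier current, and Kcnj2 encodes the inward rectifier Kir2.1, which holds the resting potential of working myocytes. Loss of function in the human counterparts of these genes is a known cause of inherited arrhythmia with delayed repolarization. Tbx3 belongs to the T-box family and acts as a repressor in the sinus node and conduction system, whereas Nkx2-5 (a homeodomain factor) and Gata4 (a zinc-finger factor) are activators of the cardiomyocyte programme.

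The 3 loci differed in how many regions they held and of which factor. At Kcnh2 there were 17 regions of Tbx3, 10 of Nkx2-5 and 1 of Gata4. Kcnq1, in a longer window, held 4 Tbx3 regions, 11 Nkx2-5 regions and none of Gata4. Kcnj2 held a single Nkx2-5 region and none of the other 2 factors. Tbx3 thus made up 60.7% of the regions at Kcnh2 (exact Clopper-Pearson 95% interval 40.6 to 78.5%) and 26.7% at Kcnq1 (7.79 to 55.1%), against 61.0% of all regions in the 3 lists together. Nkx2-5 made up 35.7% at Kcnh2 (18.6 to 55.9%) and 73.3% at Kcnq1 (44.9 to 92.2%), against 30.9% overall. The lists differ in length at unknown depth, so a share or density of one factor beside another describes these lists and not how much of each factor was bound. The intervals cover counting error only, and those of the 2 loci overlap for both factors.

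**Figure D1:**
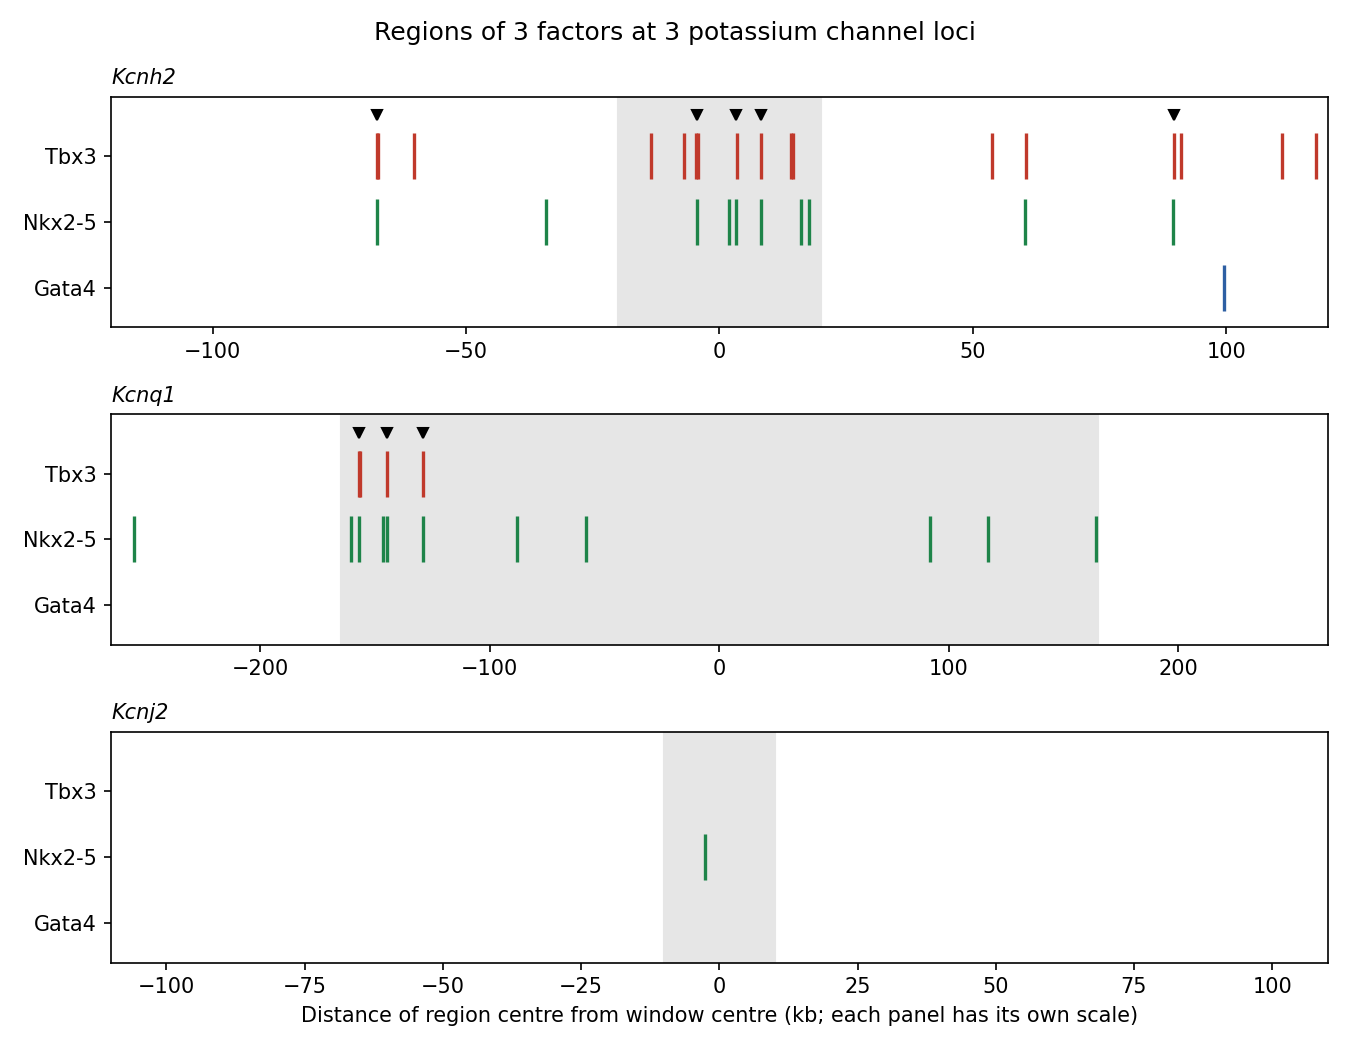
Regions of Tbx3, Nkx2-5 and Gata4 (ticks, 1 row per factor) by the distance of their centre from the centre of the window in kb, with 1 panel per gene at its own scale. Grey marks the part of the window left after 100 kb is taken off at each end, and triangles mark the 5 positions at Kcnh2 and the 3 at Kcnq1 where a Tbx3 and an Nkx2-5 region overlap.

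Set against length, Tbx3 had 7.08 regions per 100 kb at Kcnh2, 0.755 at Kcnq1 and 0 at Kcnj2, whereas its mean over the autosomes was 0.551. Nkx2-5 had 4.17 regions per 100 kb at Kcnh2, 2.08 at Kcnq1 and 0.455 at Kcnj2, with an autosomal mean of 0.277. The order of Kcnh2 and Kcnq1 for Nkx2-5 reversed with the wider 50% of the list, to 1.67 and 1.89. Kcnh2 was thus 12.8-fold above the mean for Tbx3 and 15.1-fold above it for Nkx2-5. Kcnq1 was 1.37-fold above for Tbx3 and 7.5-fold above for Nkx2-5. At Kcnj2 the 1 Nkx2-5 region stood for a density 1.64-fold above the mean.

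**Figure D2:**
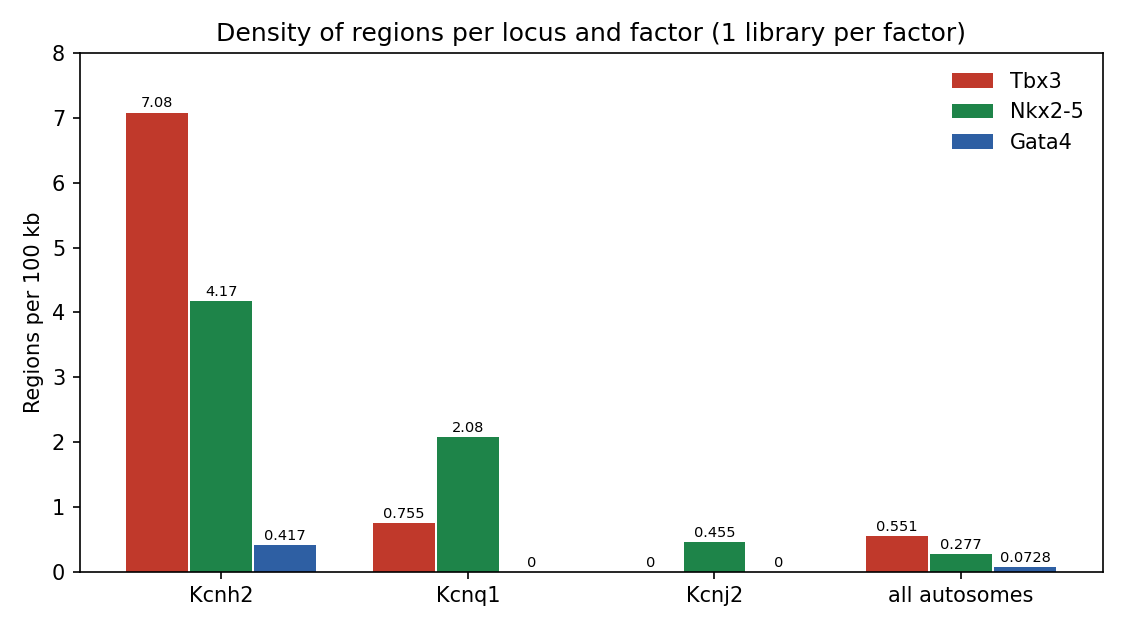
Bars give the number of regions per 100 kb for each factor (1 library each) at the 3 loci and over all autosomes, on a linear axis from 0. Kcnh2 has the tallest bars of Tbx3 (7.08) and Nkx2-5 (4.17), Kcnq1 has more Nkx2-5 (2.08) than Tbx3 (0.755), and Kcnj2 has an Nkx2-5 bar only (0.455). The lists differ in length, and for Nkx2-5 the order of Kcnh2 and Kcnq1 reverses with the wider 50% of the list.

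Windows of the same length laid end to end on the autosomes give the background of these counts. Of 9958 windows of 240 kb, 15 (0.151%) held at least 17 Tbx3 regions, the number at Kcnh2, and 11 (0.110%) held at least 10 Nkx2-5 regions. At least 1 Gata4 region, as at Kcnh2, was found in 12.9% of them. Of 4503 windows of 530 kb, 28.6% held at least 4 Tbx3 regions, the number at Kcnq1, but 37 (0.822%) held at least 11 Nkx2-5 regions, and 75.7% held no Gata4 region. Of 10864 windows of 220 kb, 62.2% held no Tbx3 region, as at Kcnj2, and 30.6% held at least 1 Nkx2-5 region. The Tbx3 count at Kcnq1 and both counts at Kcnj2 were therefore common ones. Since the loci were picked with these counts in view, nothing further is read from the rarity of the others.

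**Figure D3:**
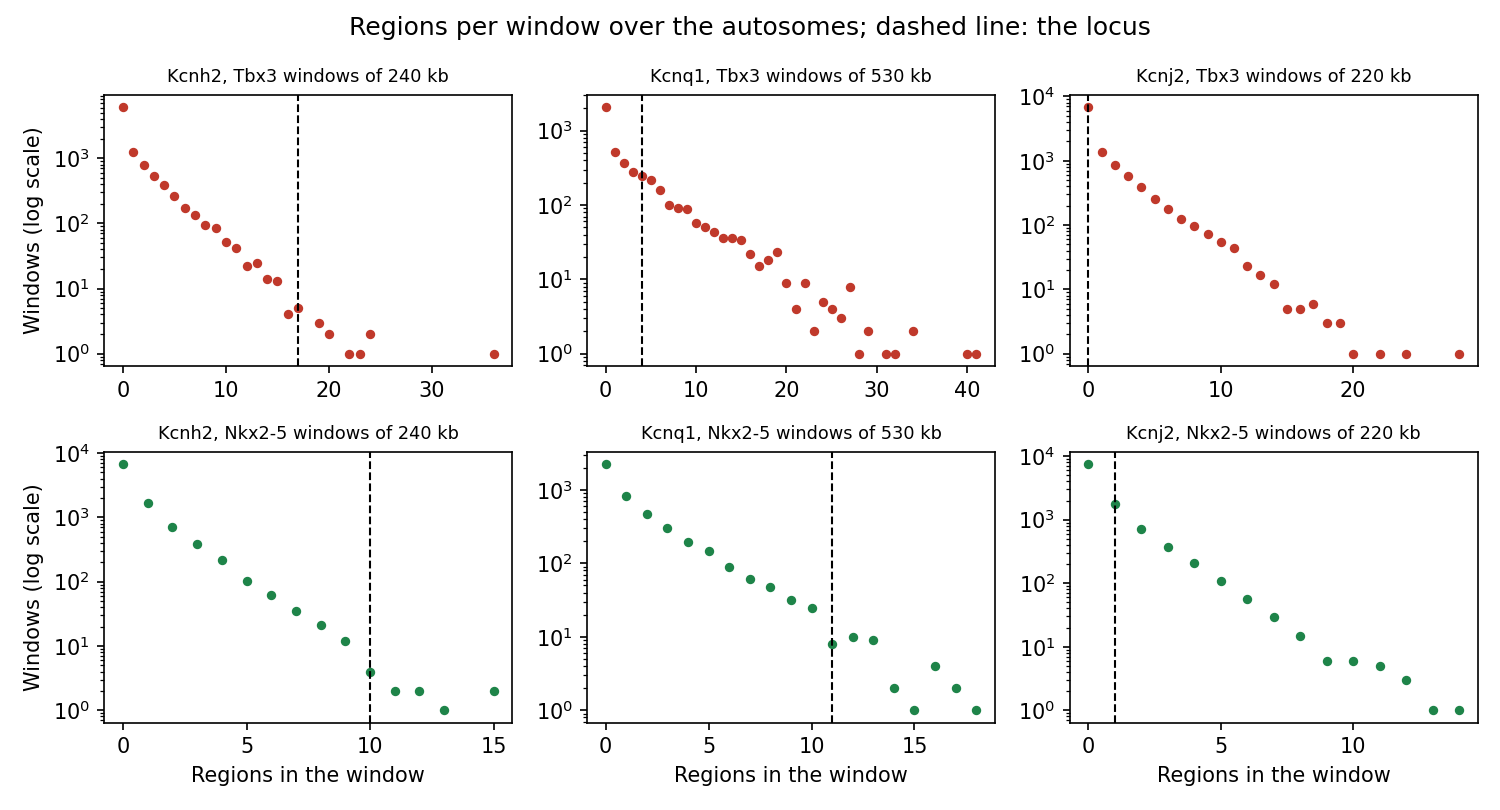
Each point is the number of autosomal windows (log scale) that hold a given number of Tbx3 regions (upper row) or Nkx2-5 regions (lower row), for windows of 240, 530 and 220 kb, and the dashed line is the number at the locus. The line lies in the far tail for both factors at Kcnh2 (17 and 10), in the tail for Nkx2-5 alone at Kcnq1 (11 against 4 for Tbx3), and at 0 and 1 at Kcnj2.

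At Kcnh2 the regions gathered in the middle of the window. The central 40 kb (23.82 to 23.86 Mb), which by the rule holds the gene, contained 14 of the 28 regions, 8 of Tbx3 and 6 of Nkx2-5. A further 5 lay in the lower flank (3 Tbx3, 2 Nkx2-5) and 9 in the upper flank (6 Tbx3, 2 Nkx2-5 and the Gata4 region). When regions of any list were joined across gaps of at most 10 kb, all 14 central regions formed 1 cluster of 31.4 kb (chr5:23826388-23857767), and the rest of the locus fell into 4 smaller clusters of 2 to 4 regions and 1 lone Nkx2-5 region. No count of clusters elsewhere in the lists is given, here or for Kcnq1, so the size of a cluster is a description only. The first region of the locus was a Tbx3 region at chr5:23772259-23772519 and the last was one at chr5:23957773-23957908.

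Tbx3 and Nkx2-5 overlapped at 5 positions of the Kcnh2 locus, 3 of them in the central cluster. In the lower flank, Tbx3 at chr5:23772259-23772519 contained the whole Nkx2-5 region at chr5:23772275-23772439. In the central cluster the first pair was Tbx3 at chr5:23835665-23835783 with Nkx2-5 at chr5:23835562-23835747, which shared 83 bp. The next was Tbx3 at chr5:23843298-23843487, which lay wholly inside the Nkx2-5 region at chr5:23843176-23843510. That Nkx2-5 region, 335 bp wide, was the widest of the locus, and 2.27% of the Nkx2-5 list was wider. The last central pair was Tbx3 at chr5:23848154-23848290 with Nkx2-5 at chr5:23848175-23848293, which shared 116 bp and had centres 12 bp apart. In the upper flank, Tbx3 at chr5:23929502-23929817 overlapped Nkx2-5 at chr5:23929492-23929605 by 104 bp. This Tbx3 region, 316 bp wide, was the widest of its factor at the locus, with 4.14% of the Tbx3 list wider.

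The other regions of Kcnh2 belonged to 1 factor. Tbx3 stood alone at 12 positions, the widest of them 185 bp at chr5:23854503-23854687, and Nkx2-5 at 5, the widest 143 bp at chr5:23856130-23856272. Some of these were near misses. A Tbx3 region at chr5:23835353-23835452 ended 109 bp before the Nkx2-5 region of the first central pair, and the Tbx3 region at chr5:23900492-23900669 followed Nkx2-5 at chr5:23900179-23900285 after 206 bp. In all, 8 of the 17 Tbx3 regions lay within 1 kb of an Nkx2-5 region (47.1%, against 24.6% of the whole Tbx3 list), and 6 of the 10 Nkx2-5 regions lay within 1 kb of Tbx3 (60.0%, against 44.3% of the Nkx2-5 regions on chromosomes with Tbx3 regions). These shares were not adjusted for the density of the locus, 12.8-fold above the autosomal mean for Tbx3 and 15.1-fold for Nkx2-5. They are therefore not read against the whole lists. The single Gata4 region, at chr5:23939501-23939603, overlapped neither factor. It lay 8441 bp from the nearest Tbx3 region and 9895 bp from the nearest Nkx2-5 region.

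In the RefSeq gene table of GRCm38, a later build used here for names and neighbours only, 8 protein-coding genes lie within 100 kb of Kcnh2: Nos3, Atg9b, Abcb8, Cdk5, Asic3, Slc4a2, Fastk and Tmub1. Nos3 encodes the endothelial nitric oxide synthase, Abcb8 a transporter of the mitochondrial inner membrane and Slc4a2 an anion exchanger. Distances from the regions to these genes were not measured, and no region is assigned to a gene here. RefSeq promoters (250 bases before to 50 after a start, GRCm38.p6) were found for 2 of the 3 genes, Kcnh2 and Kcnj2. They are shown because the windows are built around these genes; whether a region of the lists lies on them was not tested, since the builds differ. The Kcnh2 entry starts inside the span of the gene, on the minus strand of chromosome 5. It is 74.3% G or C with 19 CpG dinucleotides, against medians of 52.7% and 7 over 32851 promoters:
Kcnh2 promoter: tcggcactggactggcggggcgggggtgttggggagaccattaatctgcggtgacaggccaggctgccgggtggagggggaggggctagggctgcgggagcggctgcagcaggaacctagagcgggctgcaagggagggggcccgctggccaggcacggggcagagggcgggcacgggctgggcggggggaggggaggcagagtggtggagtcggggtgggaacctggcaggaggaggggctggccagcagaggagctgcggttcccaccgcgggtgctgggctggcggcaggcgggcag
Motifs were searched on both strands and would stand in capitals. The T-box motif GGTGTGA was in 3.98% of all promoters, the NK2 homeobox motif AAGTG in 46.4% and the GATA motif AGATAA in 11.2%; no motif contains another. None of them was in the Kcnh2 window of 300 bases, which says only that these letters are missing there.

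At Kcnq1 the factors were arranged differently inside the window: Nkx2-5 regions ran along it and Tbx3 regions were grouped towards its lower end. This depends on the window edges, since the nearest Tbx3 regions outside lay 35.7 kb below and 15 kb above. The Nkx2-5 regions spanned 419.6 kb, from chr7:150199806-150199977 in the lower flank to chr7:150619252-150619432, and 10 of the 11 fell in the central 330 kb (150.29 to 150.62 Mb). The 4 Tbx3 regions spanned 28.5 kb, all in that central part and close to its lower end. No region of any list lay in the upper flank. Joined across gaps of at most 10 kb, 7 of the 15 regions (3 Tbx3, 4 Nkx2-5) formed a cluster of 16.3 kb at chr7:150294191-150310480, a further pair of overlapping regions lay at chr7:150325966-150326216, and the other 6 were lone Nkx2-5 regions.

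Of the 4 Tbx3 regions at Kcnq1, 3 overlapped an Nkx2-5 region. Widened by 50 kb at each end, the window held 7 Tbx3 regions and still 3 shared positions. The share thus depends on where the window ends. Tbx3 at chr7:150297722-150297831 shared 52 bp with Nkx2-5 at chr7:150297780-150297937, the smallest overlap of the 8 pairs at the loci. Tbx3 at chr7:150310260-150310427 shared 128 bp with Nkx2-5 at chr7:150310300-150310480. Tbx3 at chr7:150325971-150326216 shared 202 bp with Nkx2-5 at chr7:150325966-150326172, which is 97.6% of the shorter region. The fourth Tbx3 region, at chr7:150298412-150298579, lay 474 bp from Nkx2-5, so all 4 were within 1 kb of that factor, against 24.6% of the whole Tbx3 list. In the other direction, 3 of the 11 Nkx2-5 regions were within 1 kb of Tbx3 (27.3%). The share was 44.3% for the Nkx2-5 regions on chromosomes with Tbx3 regions. As at Kcnh2, these shares were not adjusted for density and are not read against the whole lists.

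Nkx2-5 stood alone at 8 positions of Kcnq1. The widest of these, 192 bp, was at chr7:150571799-150571990, which is 163008 bp from the nearest Tbx3 region. Beyond the overlapping pair at chr7:150325966-150326216, the following 5 Nkx2-5 regions were 40521 to 188101 bp from any Tbx3 region. The median gap from an Nkx2-5 region to Tbx3 was 40521 bp at Kcnq1 and 103 bp at Kcnh2. It was 2904 bp over the 6673 Nkx2-5 regions on chromosomes with Tbx3 regions. These gaps were not adjusted for the density of Tbx3, 0.755 regions per 100 kb at Kcnq1 and 7.08 at Kcnh2. Gata4 was not listed within the window, and its nearest regions lay 545 kb below and 1010 kb above it.

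In GRCm38, 8 protein-coding genes lie within 100 kb of Kcnq1: Tspan32, Cd81, Tssc4, Trpm5, Cdkn1c, Slc22a18, Phlda2 and Nap1l4. Several of them, among them Cdkn1c, an inhibitor of cyclin-dependent kinases, and Phlda2, belong to the imprinted domain controlled through Kcnq1ot1, a long non-coding RNA transcribed antisense from within Kcnq1. The window of this locus therefore covers more than the channel gene, as at Kcnh2, where 8 protein-coding genes also lie within 100 kb.

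At Kcnj2 the only region was one of Nkx2-5 at chr11:110927397-110927511, 115 bp wide, with 77.7% of the Nkx2-5 list wider. It lay in the central 20 kb of the window (110.92 to 110.94 Mb), at -2.55 kb from the window's centre. The nearest Tbx3 region was 708 kb away, and the nearest other Nkx2-5 and Gata4 regions were each 149 kb away. Those were 1 position outside the window, 36.4 kb past its upper edge, where Nkx2-5 (chr11:111076406-111076545) and Gata4 (chr11:111076492-111076601) overlapped by 54 bp without Tbx3. In GRCm38 Kcnj16, which encodes another inward rectifier channel, was the single protein-coding gene within 100 kb of Kcnj2. The Kcnj2 promoter is on the plus strand of chromosome 11, is 66.7% G or C and has 18 CpG dinucleotides. It also held none of the 3 motifs:
Kcnj2 promoter: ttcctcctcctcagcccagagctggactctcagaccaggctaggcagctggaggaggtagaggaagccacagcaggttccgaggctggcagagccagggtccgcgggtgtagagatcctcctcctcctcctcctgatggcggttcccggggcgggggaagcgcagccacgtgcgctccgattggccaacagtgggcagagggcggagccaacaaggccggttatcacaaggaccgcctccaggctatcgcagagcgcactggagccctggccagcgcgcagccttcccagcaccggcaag

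The shared positions of Kcnh2 and Kcnq1 can be set side by side. All 8 were of Tbx3 with Nkx2-5, and no position at any of the 3 loci held Gata4 with another factor. The 3 windows held only 1 Gata4 region, however. The share of the whole Gata4 list that overlaps the other factors is not given here, so nothing is read from this absence. Of the Tbx3 regions, 5 of 17 at Kcnh2 (29.4%, exact 95% interval 10.3 to 56.0%) and 3 of 4 at Kcnq1 (75.0%, 19.4 to 99.4%) overlapped Nkx2-5, against 18.3% of the whole Tbx3 list. Of the Nkx2-5 regions, 5 of 10 at Kcnh2 (50%, 18.7 to 81.3%) and 3 of 11 at Kcnq1 (27.3%, 6.02 to 61.0%) overlapped Tbx3, against 35.8% of the whole Nkx2-5 list. The share was thus higher for Tbx3 at Kcnq1 and for Nkx2-5 at Kcnh2. At Kcnq1 the Tbx3 share depends on the window. Widened by 50 kb at each end, that window held 7 Tbx3 regions and still 3 shared positions. The intervals of the 2 loci overlap for both factors. They cover counting error only, over neighbouring regions of 1 library, and are not read against the whole lists. When the overlap had to cover 50% or more of the shorter region, Kcnq1 had 2 shared positions in place of 3 and Kcnh2 still had 5.

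Between the 2 regions of a pair, the median distance of centres was 49.5 bp at Kcnh2 (12 to 111 bp, 5 pairs) and 46.5 bp at Kcnq1 (24.5 to 82 bp, 3 pairs), against 38.5 bp over the 2445 overlapping pairs of the whole lists. The overlap took up 69.7 to 100% of the shorter region at Kcnh2 and 47.3 to 97.6% at Kcnq1. The Nkx2-5 centre lay below the Tbx3 centre in 5 of the 8 pairs and above it in 3.

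**Figure D4:**
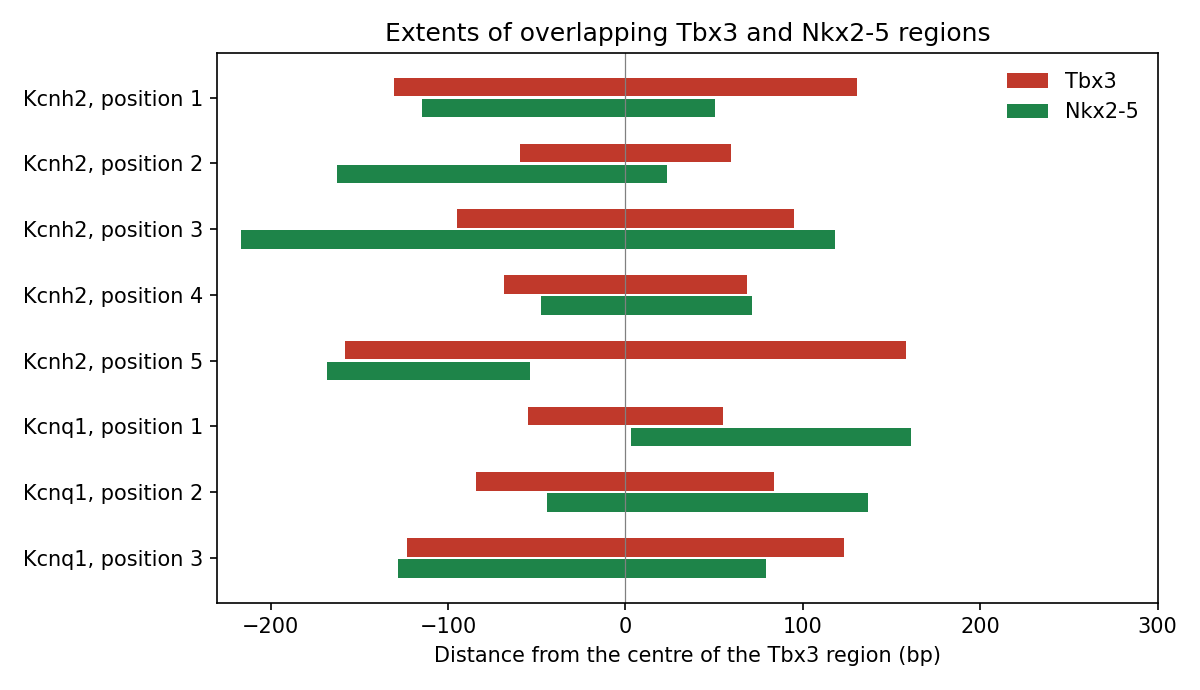
Extents in bp of the overlapping Tbx3 and Nkx2-5 regions at the 5 shared positions of Kcnh2 and the 3 of Kcnq1, in genomic order, with the centre of the Tbx3 region set to 0. The Nkx2-5 region reaches furthest past its partner at Kcnh2 position 3 (335 bp wide), and the Tbx3 region does so at Kcnh2 position 5 (316 bp wide).

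The width of a region was not used to choose the loci, and it differed between them. Nkx2-5 regions had a median width of 125.5 bp at Kcnh2 (101 to 335 bp) and 175 bp at Kcnq1 (115 to 207 bp), against 142 bp in the whole list. Tbx3 regions had a median of 138 bp at Kcnh2 (100 to 316 bp) and 168 bp at Kcnq1 (110 to 246 bp), against 147 bp. The ranges of the 2 loci overlap for both factors. At Kcnh2 the median width of shared and lone regions was 190 and 137 bp for Tbx3 and 165 and 110 bp for Nkx2-5, but their widths overlapped. The narrowest shared Tbx3 region was 119 bp and the widest lone one 185 bp, and for Nkx2-5 these were 114 and 143 bp. At Kcnq1 the same medians were 168 and 168 bp for Tbx3, the second from 1 region, and 181 against 173.5 bp for Nkx2-5. In the whole lists, regions that overlapped the other of these factors had medians of 168 against 143 bp for Tbx3 and 157 against 135 bp for Nkx2-5.

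Narrow regions made up more of the Kcnh2 count than of the Kcnq1 count. With only the wider 50% of each list, 5 of the 17 Tbx3 and 4 of the 10 Nkx2-5 regions of Kcnh2 were left, whereas Kcnq1 kept 3 of 4 and 10 of 11. Tbx3 was still denser at Kcnh2 in that setting (2.08 against 0.566 regions per 100 kb), unlike Nkx2-5. With each list cut to its 1756 widest regions, Nkx2-5 had densities of 0.833 at Kcnh2 and 0.566 at Kcnq1, from 2 and 3 regions. That cut fell among Nkx2-5 regions of 181 bp, and it left out those at chr7:150310300-150310480 and chr7:150619252-150619432 at Kcnq1. With both kept, Kcnq1 would be the denser locus, so no order of the loci is read from this setting. Kcnj2 had no region left in either setting. Shared positions numbered 2 at each of Kcnh2 and Kcnq1 with the wider 50%.

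The edges of the windows bear on the scarcer factors. Just inside the upper edge of the Kcnh2 window lay the Tbx3 region at chr5:23957773-23957908, and the nearest one past it was 20.8 kb outside. A Gata4 region lay 31.8 kb below the Kcnh2 window. At Kcnq1, Tbx3 regions lay 35.7 kb below and 15 kb above the window, and the Nkx2-5 region at chr7:150199806-150199977 was the one closest to its lower edge on the inside. Moving each edge outward by 50 kb raised the Tbx3 count at Kcnq1 from 4 to 7, while its shared positions stayed at 3.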

How the data were processed

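ChIP-seq of adult mouse heart was analysed from region lists of Tbx3, Nkx2-5 and Gata4, with 1 library per factor, grouped by the sample titles. The files deposited by the authors hold a chromosome, start and end for each region and no other values. Per the submitters' processing notes, positions are in mm9. Information on read alignment, peak calling and its threshold, depth, and the role of the control was not given in the sources used here. Per the labels' protocols, an Illumina kit was used for the libraries of these factors.

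Starts were read as counted from 0 and are printed counted from 1. A region belonged to a locus if it overlapped the window by at least 1 bp. Regions of different lists that overlap by at least 1 bp formed a shared position. The narrowest regions span 100 bp and the smallest gap within a list is 51 bp, so closer sites are not resolved. Autosomal means and windows run from the first to the last region of each chromosome. Shares carry exact Clopper-Pearson 95% intervals. Counting of shared positions was tested on simulated data. Python 3.11.15, numpy 2.4.6 and scipy 1.17.1 were used. The loci, lists and rules were chosen with earlier results of these data known. All shared positions are named, with the widest region of each factor alone and the first and last region of each locus. Region sequences, gene parts and other channel genes need an mm9 genome or annotation and were not analysed here. Alternatives were other windows, overlap rules, list lengths and cluster gaps.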

Additional observations from a re-analysis of the deposited data

How the results depend on the processing

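Of 72 alternative values, 53 stayed within 1.5 times the count given above and 19 did not. The 53 include counts of 0 that stayed at 0, such as those of Tbx3 at Kcnj2. Shorter lists, narrower windows or stricter rules could not change such a count, so the tally overstates how stable the counts are. The cause was not tested, beyond shorter lists and other windows holding other regions. With the wider 50% of each list, Kcnh2 had 5 Tbx3, 4 Nkx2-5 and 0 Gata4 regions and 2 shared positions, and Kcnj2 had 0 Nkx2-5 regions. With each list cut to its 1756 widest regions, Kcnh2 had 2 Tbx3 and 2 Nkx2-5 regions and 0 shared positions. Kcnq1 had 1 Tbx3 and 3 Nkx2-5 regions and 1 shared position, and Kcnj2 had 0 Nkx2-5 regions. The Nkx2-5 count at Kcnq1 depends on which regions of 181 bp, the width at which that list was cut, are kept. Windows narrowed by 50 kb at each end left 0 Gata4 regions at Kcnh2. Windows widened by 50 kb gave 2 Gata4 regions at Kcnh2, 7 Tbx3 regions at Kcnq1, and at Kcnj2 2 Nkx2-5 regions, 1 Gata4 region and 1 shared position. Joining across 20 kb gave 1 cluster at Kcnq1 in place of 2. Other overlap rules gave 5 or 6 shared positions at Kcnh2 and 2 or 3 at Kcnq1. No paired analysis was possible because each factor has 1 library, and for the same reason no replicate could be left out. Depth is unknown, so a difference in number between factors cannot be told apart from the length of their lists.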
